A study of Mus musculus with 6 samples.

Results

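The genes described here are 35 markers and effectors of tumour macrophages, chosen by name from knowledge of macrophages. Earlier results of these data were known when they were chosen. Of these genes, 34 were measured among the 30142 genes of the arrays. Each had 1 probe set carrying a single gene symbol. The exception was Spi1, the gene of the macrophage lineage factor PU.1, whose probe set carries a further symbol, so that it was left out. RNA came from late-stage tumours of 3 mice, C1M3, C1M5 and C2M3, in which ID8-VEGF cells had been placed under the ovarian bursa. ID8 is a mouse ovarian surface epithelial line, and its VEGF variant is made to produce the vessel growth factor. Each mouse gave 1 primary and 1 metastatic tumour, hybridised to 1 whole-transcriptome array each, giving 3 arrays per kind of tumour and 3 pairs, one per mouse. All 6 tumours share the line and the injection site. Strain, age, any treatment and the organ that held each metastatic tumour are not given in the labels. The source name of the primary tumour of C2M3 reads C2M2, while its title and donor label read C2M3, which was followed. Values are RMA log2 intensities per probe set, and lists of 3 values follow the order C1M3, C1M5, C2M3.

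Macrophages in a tumour come from blood monocytes and from cells that settled in the tissue earlier. Both depend on the receptor encoded by Csf1r and its ligands, and both bind antibody through Fc receptors, tag debris with complement C1q and clear dying cells. TIM-4 (Timd4), LYVE-1 (Lyve1), folate receptor beta (Folr2) and CD163 are markers of long-settled tissue macrophages, in fat, in the peritoneal lining and along vessels, and some of them are also found on other cells. Whole tumour RNA was measured, so that fewer macrophages and less RNA per macrophage cannot be told apart.

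C1qb and C1qc, whose products assemble into 1 complement protein, are neighbouring genes. Both were lowest in the primary tumour of C1M3 and highest in the 2 tumours of C2M3. Of these 2 tumours, C1qb was higher in the primary and C1qc in the metastatic one. Cd163 is a resident marker that was high only in the primary tumour of C2M3. The start regions of these 3 members are shown. Each is the 250 bases before the annotated start in RefSeq (GRCm38.p6), 5′ to 3′ on the strand of the gene. Capitals mark GAGGAA or its reverse complement, the core of the DNA motif bound by PU.1. These letters were picked after several forms had been counted.
C1qb, chr4:136886201-136886450, minus strand: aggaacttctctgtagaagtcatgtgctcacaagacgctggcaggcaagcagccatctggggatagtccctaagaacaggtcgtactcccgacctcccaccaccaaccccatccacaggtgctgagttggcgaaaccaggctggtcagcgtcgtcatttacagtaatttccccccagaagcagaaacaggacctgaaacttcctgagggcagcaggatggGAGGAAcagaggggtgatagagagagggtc
C1qc, chr4:136892915-136893164, minus strand: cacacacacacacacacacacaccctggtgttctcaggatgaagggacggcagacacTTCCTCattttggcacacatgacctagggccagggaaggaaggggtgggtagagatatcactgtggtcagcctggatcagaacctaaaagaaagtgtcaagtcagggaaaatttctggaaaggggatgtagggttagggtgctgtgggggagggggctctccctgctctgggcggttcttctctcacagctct
Cd163, chr6:124304401-124304650, plus strand: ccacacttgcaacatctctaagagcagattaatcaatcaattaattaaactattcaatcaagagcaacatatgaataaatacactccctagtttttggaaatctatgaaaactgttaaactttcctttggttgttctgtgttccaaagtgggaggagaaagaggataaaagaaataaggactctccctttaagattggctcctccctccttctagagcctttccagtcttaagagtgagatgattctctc
GAGGAA was found once in the C1qb window, once, reversed, in the C1qc window, and not in that of Cd163. Windows were listed for 25 of the 34 members, 31 in all, and 15 of these (48.4%) held the letters on either strand, against 23.3% of the 32851 windows of all genes. Mrc1 had 3 matches and Vsig4 had 2. No match was found in the windows of Timd4 or Folr2, and Lyve1 had no window listed. The windows of Mpeg1, Ms4a7, Lyz2, Fcer1g, Csf1, Irf8, Mertk, Gpnmb and Gas6, which are not resident markers, held no match either. A match is not a binding site, and an absent match concerns these letters in this window only.

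The primary tumour of C1M3 stood apart for these genes. It held the lowest value of the 6 arrays for 31 of the 34 members, where 15.6% of all genes had their lowest value there. The exceptions were Vsig4, Timd4 and Gas6. The mean of the 34 members was 6.21 in that tumour, against 7.64 and 8.11 in the primary tumours of C1M5 and C2M3 and 7.43, 7.51 and 8.05 in the metastatic tumours. The mean of 8 general leukocyte genes was lowest there too, at 5.54 against 6.67 to 7.39, as was that of 5 fibroblast genes, at 7.39 against 9.26 to 12.26. Array medians over all genes lay between 4.90 and 5.15. At least 1 pair of arrays had values equal within 0.01 for 14 members and for 66.2% of all genes, among them Fcgr1, with 6.73 in 4 arrays.

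**Figure D1:**
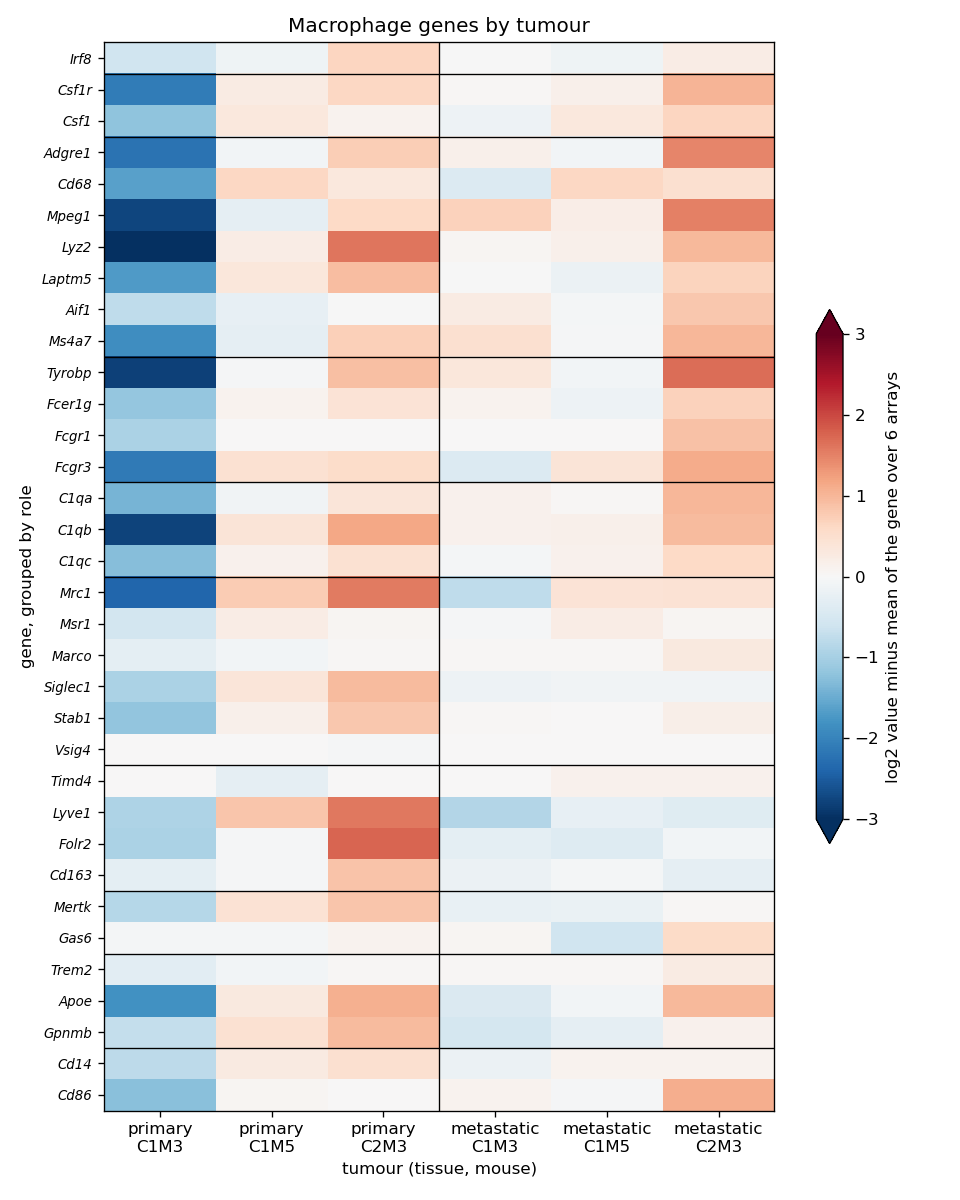
Log2 value of each of the 34 members in each tumour (columns) minus the mean of that gene over the 6 arrays, with genes grouped by role and separated by black lines; the colour scale stops at 3 in either direction. The primary tumour of C1M3 is the lowest column for 31 members, and the primary and metastatic tumours of C2M3 hold the highest value of 14 and 16 members.

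Between metastatic and primary tumours, 28 members had a higher mean and 6 a lower one in metastatic tumours. The median of these differences was 0.31 on the log2 scale, against 0.02 over all genes. None passed. At an adjusted p of 0.05 paired limma called 0 of 30142 genes (0.0%), and the lowest adjusted value, among members and among all genes, was 0.841. Before adjustment, p was under 0.05 for 2 members with higher means, Aif1 and Marco, and for 0 with lower means, where 2.96% of all genes were higher and 1.97% lower. The fit without pairing had 0 members at that level. In 6 members (Mpeg1, Aif1, Ms4a7, C1qa, Marco and Trem2) the metastatic tumour was higher in all 3 mice, against 9.95% of all genes, and in 0 it was lower in all 3, against 7.67%. With values within 0.01 taken as equal, no member had groups that lay wholly apart, while 4.13% of all genes lay wholly higher and 2.42% wholly lower in metastatic tumours.

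The differences came mostly from C1M3. In that mouse 32 of 34 members were higher in the metastatic tumour and 0 were lower, by a median of 1.14, where 33.2% of all genes were higher and 52.3% lower. In C1M5 7 members were higher, 19 lower and 8 equal within 0.01, with a median of -0.06, where 48.0% of all genes were higher and 34.2% lower. In C2M3 19 were higher and 14 lower, with a median of 0.14, where 56.6% of all genes were higher and 30.0% lower. Without the primary tumour of C1M3 the median difference was -0.06, with 13 members higher and 21 lower. Here and below, each difference without this tumour is the mean of the metastatic tumours minus that of the remaining primary tumours, unpaired by mouse. Without both tumours of C1M3, which keeps the other pairs, the median was 0.01, with 18 higher and 16 lower. Csf1r, Cd68, Fcgr3, Fcer1g and C1qc were lower in the first case but higher in those pairs, by 0.15, 0.08, 0.25, 0.01 and 0.08. With each array centred on its median every difference was lower by 0.11, and 23 members were higher and 11 lower.

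**Figure D2:**
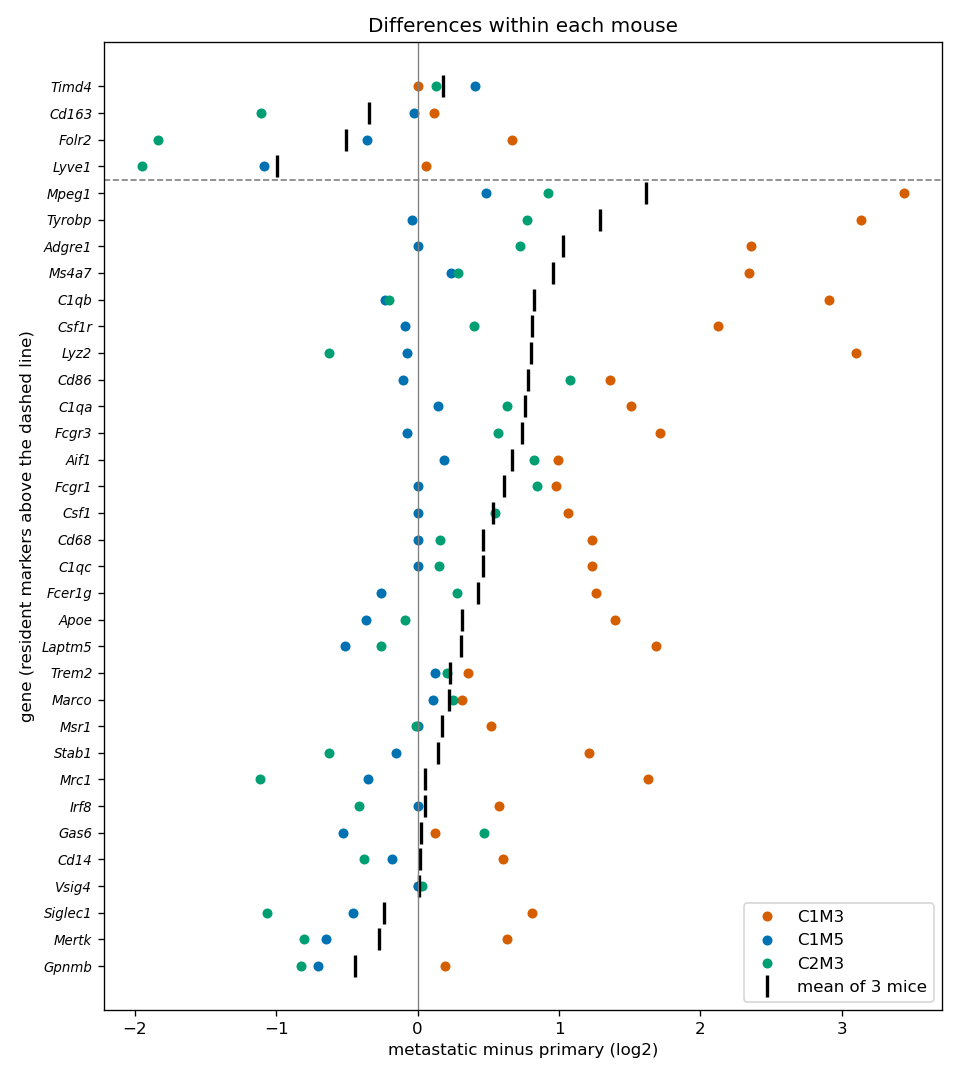
Metastatic minus primary log2 difference of each member in C1M3, C1M5 and C2M3 (coloured points) and its mean over the 3 mice (black bar), with the 4 resident markers above the dashed line. For the members below the line the points of C1M3 lie at 0 or above, with a median of 1.23, while those of C1M5 gather around 0.

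General macrophage markers all had higher means in metastatic tumours, 7 of 7, and the median was 0.80, or 0.18 without the primary tumour of C1M3. In the intact pairs of C1M5 and C2M3 their median was 0.26, with 5 higher and 2 lower. Mpeg1, which encodes the pore-forming protein perforin-2, had 6.45, 8.92 and 9.80 in primary and 9.89, 9.41 and 10.72 in metastatic tumours. It was higher in the metastatic tumour of every mouse, but the primary tumour of C2M3 lay above the metastatic tumour of C1M5. The difference of 1.62 (SE 0.75, adjusted p = 0.841 with paired limma) was the widest of the members and was 0.65 without the primary tumour of C1M3. Adgre1, the gene of a surface protein widely used to mark mouse macrophages, had 5.44, 7.57 and 8.38 in primary and 7.79, 7.57 and 9.11 in metastatic tumours, differing by 1.03 (SE 0.57). Its value in C1M5 was the same in both tumours, and without the primary tumour of C1M3 the difference was 0.18. Aif1, which encodes the actin-binding protein Iba1, had 5.42, 5.93 and 6.16 against 6.42, 6.12 and 6.99, a difference of 0.67 (SE 0.21, unadjusted p = 0.0463, adjusted p = 0.841). Only the metastatic tumour of C1M5 fell within the primary range. Lyz2, the gene of macrophage lysozyme, was lowest, at 9.06, in primary C1M3 tissue and highest, at 13.71, in that of C2M3, and its range of 4.64 was the widest of any member. Its difference of 0.80 (SE 0.94) became -0.52 without the primary tumour of C1M3. Ms4a7, a membrane-spanning protein gene, differed by 0.95 (SE 0.56), or 0.26 without that tumour. Cd68, which encodes a lysosomal glycoprotein, differed by 0.46 (SE 0.32), and Laptm5, a lysosomal membrane protein gene, by 0.30 (SE 0.57), and without the primary tumour of C1M3 these were -0.24 and -0.47.

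For the growth factor axis, Csf1r had 5.66, 8.01 and 8.38 in primary and 7.78, 7.92 and 8.78 in metastatic tumours, differing by 0.81 (SE 0.55). The primary tumour of C1M3 was alone below 7.78, and without it the difference was -0.04. Csf1, the gene of its ligand, which tumour and stromal cells also make, had 6.79, 8.32 and 8.10 against 7.85, 8.32 and 8.65, a difference of 0.54 (SE 0.25), or 0.06 without that tumour. Receptor and ligand were thus both lowest in the primary tumour of C1M3 and highest in the metastatic tumour of C2M3. Irf8, a lineage factor of monocytes and dendritic cells, differed by 0.05 (SE 0.24), or -0.23 without that tumour, and its highest value, 6.90, was in the primary tumour of C2M3.

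All 4 Fc receptor and adaptor genes had higher means in metastatic tumours, with a median of 0.67, or 0.08 without the primary tumour of C1M3. In the intact pairs of C1M5 and C2M3 their median was 0.31, with all 4 higher on average. Tyrobp, which encodes the adaptor DAP12 that carries signals of TREM2 and other receptors, had 6.69, 9.45 and 10.38 in primary and 9.83, 9.41 and 11.15 in metastatic tumours. The difference of 1.29 (SE 0.78, adjusted p = 0.841) became 0.21 without the primary tumour of C1M3, which lay 3.35 below the mean of the other 5 arrays. Fcgr3, a receptor for antibody complexes, differed by 0.74 (SE 0.43), Fcgr1, the high-affinity receptor, by 0.61 (SE 0.25), and Fcer1g, their shared signalling chain, by 0.43 (SE 0.37), and without that tumour these were -0.14, 0.28 and -0.05. For 3 of the 4, Fcgr1 being the exception, the metastatic tumour of C1M5 was below its primary tumour, by 0.04 to 0.26. The co-receptor gene Cd86, which provides costimulation to T cells, differed by 0.78 (SE 0.37), with 8.65 in the metastatic tumour of C2M3 against 7.57 in its primary tumour, while Cd14, the lipopolysaccharide co-receptor, differed by 0.01 (SE 0.25), and without the primary tumour of C1M3 these were 0.35 and -0.37.

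The C1q chains, which together form the recognition protein of the classical complement pathway, had their lowest and highest tumours partly in common. C1qa had 8.08, 9.35 and 9.82 in primary and 9.58, 9.50 and 10.46 in metastatic tumours (difference 0.76, SE 0.33). C1qb had 6.42, 9.58 and 10.35 against 9.33, 9.35 and 10.15 (difference 0.83, SE 0.85). C1qc had 5.61, 7.03 and 7.35 against 6.84, 7.03 and 7.50 (difference 0.46, SE 0.32). In all 3 genes the primary tumour of C1M3 was the lowest array and the 2 tumours of C2M3 were the highest. Without that primary tumour, and so without pairing, the differences were 0.26, -0.36 and -0.06. In the pairs of C1M5 and C2M3 the mean differences were 0.39, -0.22 and 0.08, so that C1qa and C1qc were higher there and C1qb lower.

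**Figure D3:**
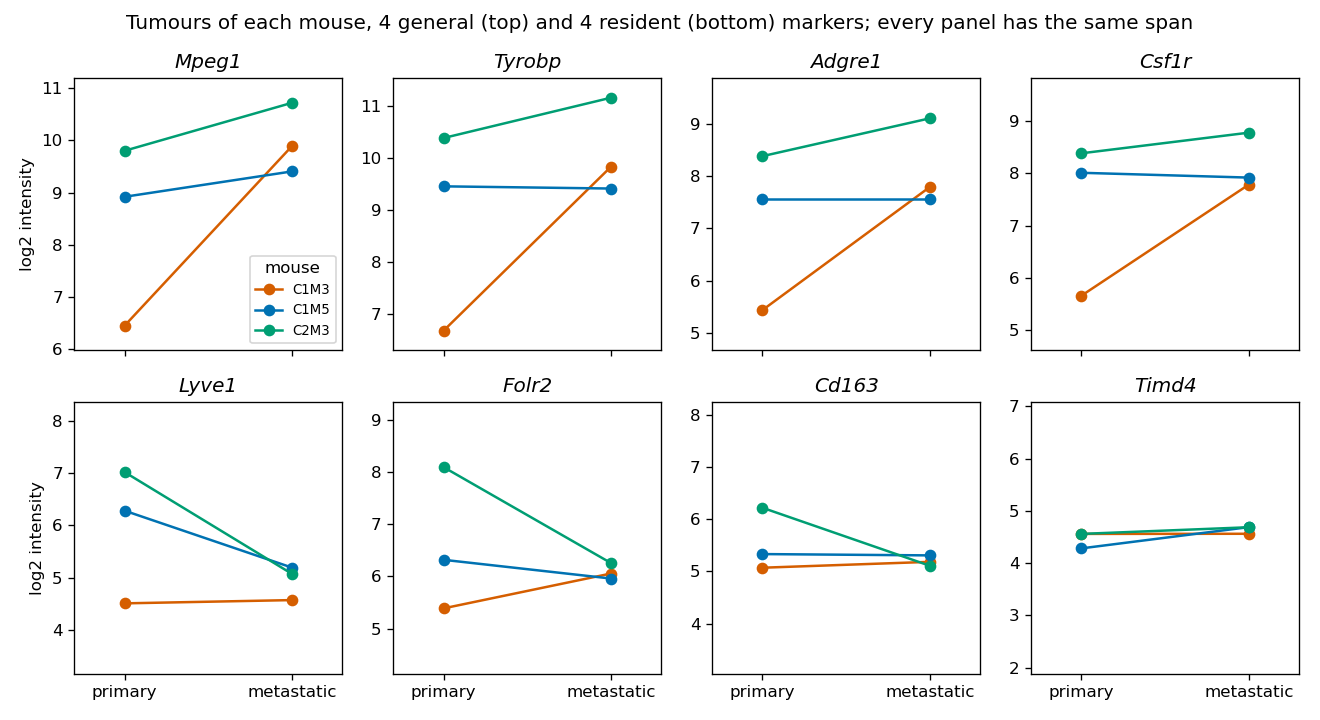
Log2 intensity of 4 general markers (Mpeg1, Tyrobp, Adgre1, Csf1r, top) and the 4 resident markers (Lyve1, Folr2, Cd163, Timd4, bottom) in the primary and metastatic tumour of each mouse, joined by a line per mouse; all panels have the same span. The general markers climb steeply only in C1M3, whereas Lyve1 and Folr2 drop in C1M5 and C2M3, by 1.09 and 1.95 for Lyve1 and by 0.36 and 1.84 for Folr2.

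Resident markers ran the other way, with 3 of 4 lower on average in metastatic tumours and a median of -0.43, against 0.44 for the other 30 members. Lyve1, which encodes a hyaluronan receptor, had 4.51, 6.28 and 7.02 in primary and 4.57, 5.19 and 5.07 in metastatic tumours. The primary tumours of C1M5 and C2M3 stood above all other arrays, and that of C1M3 lay with the metastatic ones. The difference was -0.99 (SE 0.48, adjusted p = 0.841 with paired limma), the widest downward difference of the members, and -1.71 without the primary tumour of C1M3. Folr2, a folate-binding surface protein gene, had 5.39, 6.32 and 8.09 against 6.05, 5.96 and 6.25, a difference of -0.51 (SE 0.59), and the primary tumour of C2M3 was alone above 6.32. Cd163, the haemoglobin scavenger receptor gene, had 5.07, 5.33 and 6.22 against 5.18, 5.31 and 5.11, a difference of -0.34 (SE 0.32). Without the primary tumour of C1M3 Folr2 differed by -1.12 and Cd163 by -0.58. For Cd163 too a single array, the primary tumour of C2M3, was high. With that array left out instead, and so unpaired, Lyve1 differed by -0.45, Folr2 by 0.24 and Cd163 by -0.002. Timd4, which encodes a receptor for phosphatidylserine on dying cells, lay between 4.28 and 4.69 in all arrays, a range of 0.41, with a difference of 0.18 (SE 0.11). Its metastatic values of 4.56, 4.69 and 4.69 lay at or above the highest primary value, 4.56, the lowest of them by less than 0.01. All Timd4 values lay below the array medians over all genes, 4.90 to 5.15. So did the Lyve1 values of both C1M3 tumours and of the metastatic tumour of C2M3. Cd163 lay just below them in the primary tumour of C1M3, at 5.07 against 5.08, and in the metastatic tumour of C2M3, at 5.11 against 5.15.

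Within each mouse the resident median moved below that of the other members. The resident median difference was 0.09, -0.19 and -1.47, against 1.23, -0.06 and 0.18 for the other members, which leaves -1.15, -0.13 and -1.66. Without Timd4 it was -1.12, -0.30 and -2.02. The difference between the medians over the 3 mice was -0.87, and lay between -1.25 and -0.46 with 1 mouse left out. The resident mean was 4.88 to 6.47 over the arrays, against 6.39 to 8.42 for the other members, and the part of this lower level in the contrast was not tested. No test was made of this contrast, since the members were chosen with results of these arrays known.

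Some other members lay with the resident markers Lyve1 and Folr2. Set against the median difference of all members in the same mouse, Lyve1, Folr2, Siglec1, Mertk, Gpnmb and Cd14 lay lower in all 3 mice, and Mpeg1, Tyrobp, Adgre1, Ms4a7, Cd68, C1qa and C1qc lay higher in all 3. The resident markers Cd163 and Timd4 did not, and in C1M5 they stood 0.03 and 0.46 above that median. By its construction this median has members on both sides in each mouse. Mertk, a receptor tyrosine kinase for the uptake of dying cells, had 6.02, 7.31 and 7.71 in primary and 6.65, 6.66 and 6.90 in metastatic tumours, differing by -0.27 (SE 0.37). Siglec1, the sialic acid receptor CD169, had 5.11, 6.42 and 7.01 against 5.92, 5.96 and 5.95, a difference of -0.24 (SE 0.45). In both genes the metastatic tumours differed little from each other, and 2 primary tumours lay above them and 1 below, without which both differences were -0.77. Gpnmb, a glycoprotein gene of lipid-laden macrophages, had 5.33, 6.50 and 7.00 against 5.52, 5.79 and 6.17, a difference of -0.45 (SE 0.26), and -0.92 with the primary tumour of C1M3 left out. Without both tumours of C1M3 the unadjusted p was 0.00704 for Gpnmb, 0.0108 for Mertk, 0.0424 for Lyve1, 0.0451 for C1qb and 0.0343 for Ms4a7, the last of which was higher in metastatic tumours. These 5 of 34 members stand beside 14.8% of all genes at that level, and the adjusted p with limma was at least 0.278 for every member.

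The scavenger and lectin receptors were split. Mrc1, the mannose receptor gene, had 5.71, 8.86 and 9.65 in primary and 7.34, 8.51 and 8.54 in metastatic tumours, differing by 0.05 (SE 0.67), and by -1.13 without the primary tumour of C1M3. Stab1, which encodes the endocytic receptor stabilin-1, differed by 0.14 (SE 0.45), and by -0.41 without that tumour. Marco, a receptor for bacteria and particles, lay between 5.20 and 5.78 and differed by 0.22 (SE 0.07, unadjusted p = 0.0478, adjusted p = 0.841), while Msr1, the class A scavenger receptor gene, differed by 0.17 (SE 0.15), and without that tumour these were 0.14 and -0.06. Vsig4, a complement receptor gene of resident macrophages, stood at 4.13 in the primary tumour of C2M3 and 4.16 in every other array.

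Among lipid-associated members, Apoe, which encodes a lipid carrier that many cells make, had 9.53, 11.64 and 12.42 in primary and 10.93, 11.27 and 12.33 in metastatic tumours, differing by 0.32 (SE 0.45), and by -0.52 once the primary tumour of C1M3 was left out. Trem2, a lipid-sensing receptor gene, had 4.82, 5.05 and 5.18 against 5.18, 5.18 and 5.38, a difference of 0.23 (SE 0.07, unadjusted p = 0.0517), or 0.13 without that tumour. All of its values lay within 0.57. Gas6, the ligand of MERTK and AXL, had 13.90, 13.90 and 14.06 against 14.02, 13.37 and 14.53, a difference of 0.02 (SE 0.24). Unlike most members it was not low in the primary tumour of C1M3, which lay 0.08 below the mean of the other arrays.

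The tumours of C2M3 held the highest value of 30 members, which divided into 14 highest in the primary and 16 highest in the metastatic tumour, a division made after the values were seen. The share of all genes highest in these tumours was not counted, so these counts have no background beside them. Highest in the primary tumour were Lyve1, Folr2, Cd163, Mrc1, Siglec1, Stab1, Mertk, Gpnmb, Apoe, Lyz2, Laptm5, C1qb, Cd14 and Irf8. Highest in the metastatic tumour were Csf1r, Csf1, Adgre1, Mpeg1, Aif1, Ms4a7, Tyrobp, Fcer1g, Fcgr1, Fcgr3, C1qa, C1qc, Marco, Gas6, Trem2 and Cd86. In C1M5, 13 of the first 14 genes were lower in the metastatic tumour, with a median of -0.36, and 6 of the other 16 were, with a median of 0.00. In C1M3 both sets were higher in the metastatic tumour, with medians of 0.74 and 1.31.

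Lists of some other cells also held genes with lower means, but not all of them moved with the resident set in C1M3. Fat cell genes, 6 of 6 lower on average in metastatic tumours, had list means of 5.70, 9.27 and 11.63 in primary and 5.87, 5.84 and 5.37 in metastatic tumours. The primary tumours had the same order in Lyve1 and Folr2, but this order was not particular to them. It also held for the means of the other members (6.39, 7.92 and 8.33) and of the leukocyte, blood endothelial and fibroblast lists. It did not hold for the lymphatic endothelial or the mesothelial and tumour epithelial list. Of 5 lymphatic endothelial genes, a cell type that also carries LYVE-1, 4 had lower means, with list means of 6.29, 7.40 and 7.18 against 6.55, 6.97 and 6.49. Pdpn, the gene with a higher mean, lay between 13.52 and 14.62, far above the other 4, and so weighs most in these list means. Mmrn1, a lymphatic vessel gene, had 4.48, 5.57 and 6.34 against 4.39, 4.48 and 4.61, and Prox1, the lymphatic lineage factor, lay between 3.95 and 4.52. Blood endothelial genes, 6 of 7 lower, had list means of 6.23, 7.23 and 8.79 against 7.26, 5.97 and 7.38, and fibroblast genes, 3 of 5 lower, had 7.39, 10.74 and 12.26 against 9.37, 9.26 and 10.76. In C1M3 the median difference was 0.09 for the resident markers, 0.15 for fat cell and -0.06 for lymphatic endothelial genes. It was 1.32 there for blood endothelial and 2.28 for fibroblast genes, against 1.23 for the other members. None of these genes passed with paired limma. Their part in the values of the resident markers was not tested.

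**Figure D4:**
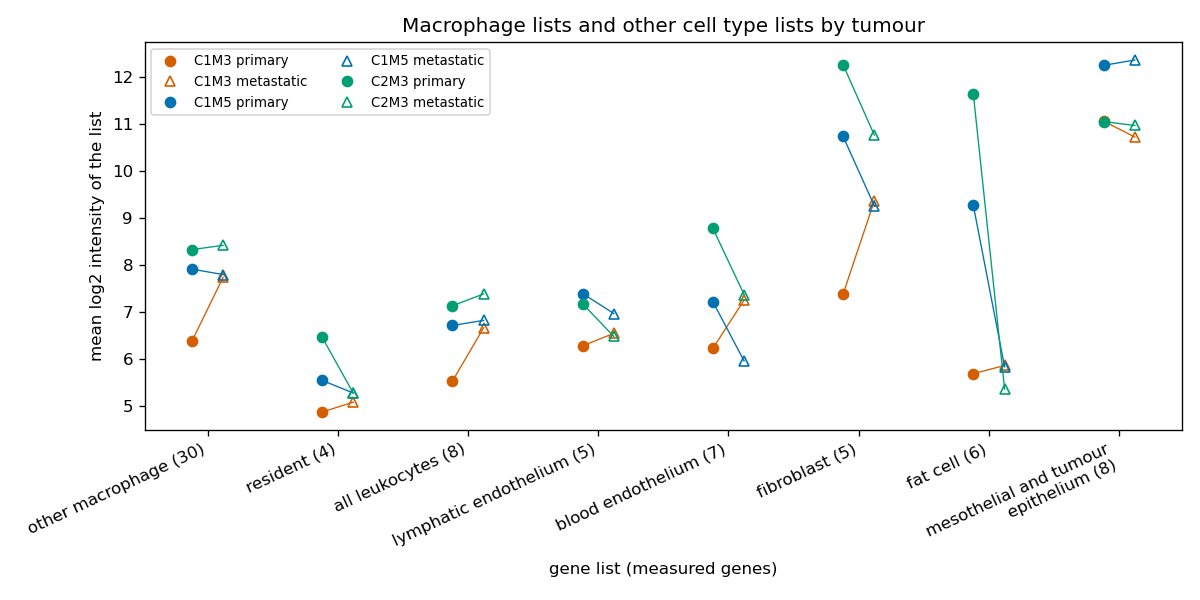
Mean log2 intensity of the 30 other members, the 4 resident markers and 6 lists of marker genes of other cells, with filled circles for primary and open triangles for metastatic tumours, joined per mouse (colour); list levels depend on their probe sets, so they are to be read within a list. Resident, lymphatic endothelial, blood endothelial, fibroblast and fat cell lists drop in C1M5 and C2M3. The other members and the leukocyte list rise most in C1M3. The blood endothelial and fibroblast lists rise there too, from 6.23 to 7.26 and from 7.39 to 9.37, and the resident, lymphatic and fat cell lists rise less.

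Over the arrays the list mean lay between 4.41 and 4.60 for 10 neutrophil genes, 4.42 and 4.74 for 5 B cell genes, 4.56 and 5.26 for 7 T cell genes and 5.08 and 5.46 for 9 dendritic cell genes. The list means of 9 monocyte genes were 6.17, 7.15 and 7.77 in primary and 6.97, 6.92 and 7.60 in metastatic tumours. Of these genes 4 had higher and 5 lower means in metastatic tumours, or 2 and 7 without the primary tumour of C1M3. Cx3cr1, a chemokine receptor gene of monocytes and macrophages, had 7.97, 9.98 and 9.77 against 10.51, 10.56 and 11.61, with all metastatic values above all primary ones and a difference of 1.65 (SE 0.46, unadjusted p = 0.037, adjusted p = 0.841). Ccr2, the receptor for monocyte recruitment, had 4.87, 5.58 and 6.28 in primary and 5.57, 5.65 and 6.10 in metastatic tumours. Both are among the 4 monocyte genes with higher means. Of the 5 with lower means, Ace differed by -0.05, -1.25 and -1.60 and F13a1 by 0.45, -0.34 and -1.33 in C1M3, C1M5 and C2M3. Ly6c2, with a higher mean, differed by 3.00, -0.94 and -1.31. All 8 leukocyte genes had higher means, with a median of 0.56, or 0.05 without the primary tumour of C1M3. In the intact pairs of C1M5 and C2M3 their median was 0.21, with 6 higher and 2 lower. The Kupffer cell gene Clec4f, specific to liver macrophages, lay between 4.04 and 4.29, and Cd5l, also on that list, between 4.81 and 5.24. The 5 liver cell genes had list means of 4.99 to 5.79, raised by Ahsg at 7.29 to 11.4, and list medians of 4.29 to 4.43. Mesothelial and tumour epithelial genes, 4 higher and 4 lower, had list means of 11.07, 12.25 and 11.06 against 10.72, 12.36 and 10.97.

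None of the further macrophage pathway genes passed with paired limma. All 8 measured genes of the MS4A and CD300 families had higher means, with a median of 0.33, led by Ms4a6c at 1.13 (SE 0.52), Ms4a6b at 0.66 (SE 0.22) and Ms4a6d at 0.36 (SE 0.19). Without the primary tumour of C1M3 these were 0.36, 0.25 and 0.08, and the list had 4 higher, 4 lower and a median of 0.02. Of 7 genes of the phagocyte oxidase and phagosome, 5 were higher, with a median of 0.14, or 0.03 without that tumour. Cybb and Cyba, which encode the membrane subunits of the oxidase, differed by 1.27 (SE 0.59) and 1.13 (SE 0.57), and Acp5, an acid phosphatase gene, by -0.61 (SE 0.44). Leaving out that tumour gave 0.52 for Cybb, 0.21 for Cyba and -1.08 for Acp5. Of 13 further ITAM pathway genes, which relay Fc receptor and DAP12 signals, 10 were higher, with a median of 0.11, and the widest differences were 0.99 (SE 0.45) for Fcgr4, 0.70 (SE 0.48) for the beta-glucan receptor gene Clec7a and 0.63 (SE 0.62) for Sirpa, which binds the CD47 signal of live cells. With that tumour left out the direction of the ITAM list turned, to 5 higher, 8 lower and a median of -0.04, and the values were 0.50 for Fcgr4, -0.03 for Clec7a and -0.21 for Sirpa.

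In the remaining pathway lists higher and lower means were more even. Of 13 further CSF1 and GM-CSF pathway genes, 7 were higher and 6 lower, among them Cebpa, a factor of myeloid and fat cells, at -1.79 (SE 1.17), Ptpn6, a phosphatase gene, at 0.66 (SE 0.23) and Irf4 at -0.57 (SE 0.33). Without the primary tumour of C1M3, 5 were higher and 8 lower, with Cebpa at -3.40, Ptpn6 at 0.26 and Irf4 at -1.07. Of 14 further genes of dying-cell uptake, 7 were higher and 7 lower. Cd36, a fatty acid and scavenger receptor also abundant in fat cells, differed by -3.25 (SE 2.06), the lipoprotein receptor gene Scarb1 by -1.07 (SE 0.16, unadjusted p = 0.00618, adjusted p = 0.841) and the integrin gene Itgav by 0.38 (SE 0.14). Scarb1 fell short of the primary value in all 3 metastatic tumours, with differences of -1.34, -0.72 and -1.15. Without the primary tumour of C1M3 the difference was -0.57 for Scarb1 and -5.62 for Cd36, and the list had 5 genes higher and 9 lower. Of 13 further lipid-associated genes, 8 were higher and 5 lower, with Lpl, the lipoprotein lipase gene, at -0.88 (SE 0.53) and Itgax, the CD11c gene, at 0.76 (SE 0.51). Without that tumour 5 were higher and 8 lower, with Lpl at -1.34 and Itgax at 0.43.

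Activation genes, 8 of 11 higher with a median of 0.13, included Il4ra, the interleukin-4 receptor gene, at 0.97 (SE 0.54), Arg1, the arginase gene of alternative activation, at 0.59 (SE 0.25) and Retnla, also of alternative activation and of fat, at -0.85 (SE 0.72). Leaving out the primary tumour of C1M3, Il4ra differed by 0.15, Arg1 by 0.71 and Retnla by -1.44. In Arg1 the difference was 0.00 in C1M3 and 1.01 and 0.77 in C1M5 and C2M3. Retnla was high only in the primary tumour of C2M3, at 6.88 against 4.07 to 4.80 elsewhere. Genes of large peritoneal macrophages, the resident population of the body cavity in which these tumours grow, were 6 higher and 6 lower with a median of -0.000758. The widest were Tgfb2 at 0.78 (SE 0.46), the B cell chemokine gene Cxcl13 at 0.68 (SE 0.42) and Thbs1 at 0.57 (SE 0.50). With the primary tumour of C1M3 left out they were 0.79, -0.28 and -0.03, and 4 of the list were higher and 8 lower.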

How the data were processed

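The deposited values are log2 intensities per probe set of 6 arrays, 3 primary and 3 metastatic tumours. The submitters' processing notes name RMA, which corrects background, applies quantile normalization and summarises probes, and Transcriptome Analysis Console, without versions; the genome build is not given in the sources used here. Of 72688 probe sets, 30604 carried 1 gene symbol and 2146 several; 827 symbols were updated through Entrez Gene identifiers with a RefSeq table (GRCm38.p6), and the probe set with the highest mean was kept per gene, giving 30142 genes. The other probe sets, controls included, were not used. limma 3.58.1 in R 4.3.3 was fitted over all genes with mouse as a block, two-sided, with Benjamini-Hochberg adjustment at 0.05, and was tested on simulated data. Values within 0.01 were counted as equal. The pairing follows the donor label. Deviations from the group means correlated with r = -0.05, 0.35 and 0.07 between the tumours of C1M3, C1M5 and C2M3. Members and lists were chosen with earlier results of these data known. All members, and up to 3 genes per pathway list with the widest difference, were named; other genes were chosen after their values were seen. The number of arrays limits the precision. Alternatives were the fit without the block, single arrays left out, mice left out, centring, a filter on dim genes, array weights and the mean over probe sets. Fits with a single array left out had no block.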

Additional observations from a re-analysis of the deposited data

How the results depend on the processing

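No gene passed at an adjusted p of 0.05 with limma under any alternative run: 0 of 30142 genes without the mouse as a block, with 1269 genes and 0 members at an unadjusted p under 0.05. Removing the replicate block cannot move the differences of complete pairs (member median 0.31, resident minus other -0.87), only their errors. With arrays or mice left out the member median lay between -0.06 and 0.74, lowest without the primary tumour of C1M3, and the resident minus other difference between -1.25 and -0.46. Of 34 members, 14 kept the sign of their difference under all alternatives run and 20 did not, as against 18 and 5 of 23 named pathway genes. With arrays centred on their median the turned differences were Irf8 -0.054, Mrc1 -0.053, Vsig4 -0.096, Gas6 -0.083, Cd14 -0.092. With array weights they were Irf8 -0.039, Laptm5 -0.29, Fcer1g -0.032, Mrc1 -0.35, Stab1 -0.14, Gas6 -0.27, Apoe -0.17, Cd14 -0.16. With arrays or mice left out, genes that turned ranged as follows: Irf8 -0.23 to 0.39, Csf1r -0.036 to 1.33, Cd68 -0.24 to 0.89, Lyz2 -0.52 to 1.80, Laptm5 -0.47 to 0.84, Fcer1g -0.046 to 0.77, Fcgr3 -0.14 to 1.19, C1qb -0.36 to 1.61, C1qc -0.065 to 0.81, Mrc1 -1.13 to 0.84, Msr1 -0.063 to 0.32, Siglec1 -0.77 to 0.18, Stab1 -0.41 to 0.58, Folr2 -1.12 to 0.24, Cd163 -0.58 to 0.044, Mertk -0.77 to 0.075, Gas6 -0.25 to 0.33, Apoe -0.52 to 0.93, Cd14 -0.37 to 0.26, Clec7a -0.025 to 1.26, Sirpa -0.21 to 1.16, Retnla -1.44 to 0.018, Cxcl13 -0.28 to 1.18, Thbs1 -0.044 to 0.90. With 3 mice and no repeat arrays, the paired fit has few degrees of freedom.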
